A study of Mus musculus with 18 samples.

Results

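The genes described here are 9 genes of the renin-angiotensin system, chosen by name from the 24062 gene symbols of the series. They are the renin gene Ren1, the substrate gene Agt, the converting enzyme gene Ace, the angiotensin peptidase genes Enpep, Mme and Anpep, the receptor genes Agtr1a and Agtr1b, and Atp6ap2, which encodes the (pro)renin receptor. RNA was measured by total RNA sequencing of kidney cortex from C57Bl/6 mice in 18 libraries, 3 in each of 6 groups. Mice carried floxed Klf6 alleles (labelled Klf6fl/fl, here fl/fl) or were labelled Klf6PTKO, the knockout of this Krüppel-like transcription factor in the proximal tubule. Each genotype received the vehicle DMSO, or AAI (aristolochic acid I, a plant nephrotoxin taken up by proximal tubule cells) for 3 weeks. A further group of each genotype received the same 3 weeks of AAI followed by 3 weeks of remodeling, and is called the 6-week group after the sample titles. The labels name neither the Cre driver, nor the AAI dose, nor the time at which the DMSO kidneys were taken. Nothing in the labels says that the 3 libraries of each group are 3 animals, so a p-value here covers the spread among libraries, which could be technical.

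Renin, released by juxtaglomerular cells of the afferent arteriole, cleaves angiotensinogen to angiotensin I, and angiotensin converting enzyme turns that peptide into angiotensin II. Angiotensin II acts mainly through the type 1 receptor, which in rodents is encoded by Agtr1a and Agtr1b, to constrict vessels and drive tubular sodium reabsorption and aldosterone release. The kidney holds its own copy of the system. Proximal tubule cells make angiotensinogen, and their brush border carries converting enzyme together with aminopeptidase A (Enpep), neprilysin (Mme) and aminopeptidase N (Anpep), which cut angiotensin peptides further.

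Values are CPM as deposited, that is, reads of a gene scaled to a common library total. Tests are from limma on log2(CPM + 1), two-sided, with Benjamini-Hochberg adjusted p over the 14604 genes that had at least 1 CPM in at least 3 libraries, and a gene was said to have changed where that p was under 0.05. Of the 9 members, 7 were tested, and Ren1 and Agtr1b did not pass that filter. Libraries held 11722625 to 27213219 reads. On CPM the median of all tested genes shifted by 0.45 (fl/fl, 3 weeks), 0.45 (fl/fl, 6 weeks), 0.415 (labelled PTKO, 3 weeks) and 0.36 (labelled PTKO, 6 weeks) against DMSO, on the log2 scale. Differences from DMSO are therefore read against that shift, and values with median-of-ratios scaling, which takes it out, are given where they change a call. Quantile normalization also takes it out, leaving medians of -0.089, -0.091, -0.091 and -0.065 in that order. The libraries fit the labelled tissue, with 14 proximal tubule markers summing to 62360 to 69300 CPM in the DMSO libraries of both genotypes. Klf6 itself ran from 39.2 to 56.7 CPM in the 6 DMSO libraries, the genotypes overlapping. They also overlapped after AAI, at 256.1 to 308.3 CPM (fl/fl) and 229.1 to 309.7 CPM (labelled PTKO) at 3 weeks. At 6 weeks the ranges were 201.1 to 284.4 CPM and 227.9 to 369.8 CPM. A whole-cortex level does not check a deletion in the tubule. In 2 libraries labelled PTKO, DMSO replicate 2 and 6-week replicate 2, 7 adipocyte markers summed to 98.7 and 435.3 CPM, against 24.7 to 45.2 in the other 16 libraries. The 6-week replicate 3 labelled PTKO held a fibroblast marker sum of 174.3 CPM, against 584.4 and 699.3 in the other 2 of its group. The shallowest library was 6-week fl/fl replicate 2.

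The promoters of the 3 members whose levels moved most, Agt upward and Ace and Enpep downward, are shown so that the sequence ahead of each start can be compared. Each holds the 250 bases before and 50 bases after the RefSeq start on GRCm38.p6, written 5′ to 3′ on the gene's strand, with capitals where a searched motif matched. The windows are chr8:124569657-124569956 (minus strand) for Agt, chr11:105967698-105967997 (plus strand) for Ace and chr3:129332700-129332999 (minus strand) for Enpep.
Agt: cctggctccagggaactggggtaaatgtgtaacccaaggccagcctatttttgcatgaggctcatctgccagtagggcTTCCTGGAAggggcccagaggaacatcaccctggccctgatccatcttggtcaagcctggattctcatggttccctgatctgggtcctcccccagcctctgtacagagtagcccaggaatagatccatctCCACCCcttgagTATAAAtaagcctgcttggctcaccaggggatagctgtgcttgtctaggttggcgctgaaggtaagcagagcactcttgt
Ace: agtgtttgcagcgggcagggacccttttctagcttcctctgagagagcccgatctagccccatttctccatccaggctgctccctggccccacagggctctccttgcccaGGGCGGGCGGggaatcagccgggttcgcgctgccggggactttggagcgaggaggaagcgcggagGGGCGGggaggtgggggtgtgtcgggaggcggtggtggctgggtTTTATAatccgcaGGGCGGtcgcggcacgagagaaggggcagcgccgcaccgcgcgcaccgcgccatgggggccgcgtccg
Enpep: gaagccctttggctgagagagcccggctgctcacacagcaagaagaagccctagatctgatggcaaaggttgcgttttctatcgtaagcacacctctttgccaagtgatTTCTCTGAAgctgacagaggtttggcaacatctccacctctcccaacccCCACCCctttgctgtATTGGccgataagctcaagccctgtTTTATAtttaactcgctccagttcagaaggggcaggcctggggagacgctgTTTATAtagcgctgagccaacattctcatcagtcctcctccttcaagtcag
The motifs were searched on both strands. The GC box was searched as GGGCGG and the box named for its CACCC core as CCACCC. The TATA box was searched as TATAAA, the box bound by NF-Y as CCAAT and the core letters for the liver and kidney factor HNF1 as GTTAAT. Of the longer motifs, the HNF4 site was CAAAGTCCA, the STAT site was TTCNNNGAA and the cyclic AMP element was TGACGTCA. The GC and CACCC boxes are the letters to which Krüppel-like and Sp factors commonly bind. Agt held 1 CACCC box, 1 TATA box and 1 STAT site, and its TATA box starts at position -30 from the gene start. Ace held 4 GC boxes of which the 2 farthest from the start overlap, and 1 TATA box on the opposite strand, and no CACCC box. Enpep held 1 CACCC box, 2 TATA boxes and 1 CCAAT box on the opposite strand, and 1 STAT site. Among all 32851 promoters of the RefSeq table, the GC box was in 35.7%, CACCC in 31.5%, the TATA box in 13.6%, the CCAAT box in 37.4% and the STAT site in 8.3%. The HNF1 letters, the HNF4 site and the cyclic AMP element, in 7.1%, 0.475% and 1.79% of all promoters, did not match in these 3 windows. A match describes the letters in the window and is no measure of binding. Of the 9 members, 8 had an entry in that table. Ace had a second start there, 105974939 to 105975238 on chromosome 11, whose window is not printed and held 1 CACCC box and, on the opposite strand, 1 CCAAT box, with no GC or TATA box.

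Ren1, the gene for renin (chromosome 1, 133350510 to 133360325, plus strand, mm10), is listed at 0 in every library, among 365236437 reads in all. Ren2, the second renin gene that some mouse strains carry, is a separate entry of the table and holds 1 read in all, in a 3-week library labelled PTKO. Some genes that every cell uses are also near 0 in this table, so a value of 0 here is no measure of renin RNA. Gapdh, a glycolytic enzyme, ran from 0.842 to 2.81 CPM over the 18 libraries, the polyubiquitin gene Ubb from 0.153 to 1.19, and the proton pump subunit Atp6v0c from 0 to 0.232, examples chosen after their values were seen. No comparison was made for Ren1. Genes linked to the renin-producing cell were measured. Of 10 such genes, 7 rose in fl/fl at 3 weeks and none fell, and the rises against DMSO in the other 3 AAI groups were 6 (fl/fl, 6 weeks), 8 (labelled PTKO, 3 weeks) and 7 (labelled PTKO, 6 weeks). Of all tested genes 58%, 59.8%, 57.2% and 53.7% rose in the same order. With median-of-ratios scaling 5, 4, 5 and 4 rose in that order of groups, and 1 fell in fl/fl at 3 weeks, and of all tested genes 36.7%, 34.1%, 32.9% and 28.7% rose. Akr1b7, an aldo-keto reductase that mouse renin cells make alongside renin, ran from 1.27 to 2.64 CPM in the DMSO libraries. At 3 weeks it ran from 4.08 to 5.93 CPM in fl/fl and from 4.12 to 8.18 CPM in the libraries labelled PTKO. It did not overlap with DMSO in either genotype, nor did 80.7% (fl/fl) and 74.9% (labelled PTKO) of all tested genes. Akr1b7 was named after its values were seen. At 6 weeks it ran from 2.14 to 2.78 CPM in fl/fl and from 2.16 to 4.31 CPM in those labelled PTKO. From 3 to 6 weeks it fell by 0.73 in fl/fl (log2, adjusted p = 0.049), a call lost with median-of-ratios scaling (adjusted p = 0.0559). The prostaglandin receptor gene Ptger4, the Notch effector Rbpj and the cyclooxygenase gene Ptgs2 had the smallest adjusted p of the list in fl/fl at 3 weeks, with log2 differences of 3.07, 1.73 and 1.68. Macrophages also carry Ptger4, Rbpj and Ptgs2, and 9 of 9 macrophage markers rose in each of the 4 AAI groups, from summed levels of 127.7 to 191.4 CPM under DMSO to 1010 to 8217 CPM. Their part in the result was not tested.

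**Figure D1:**
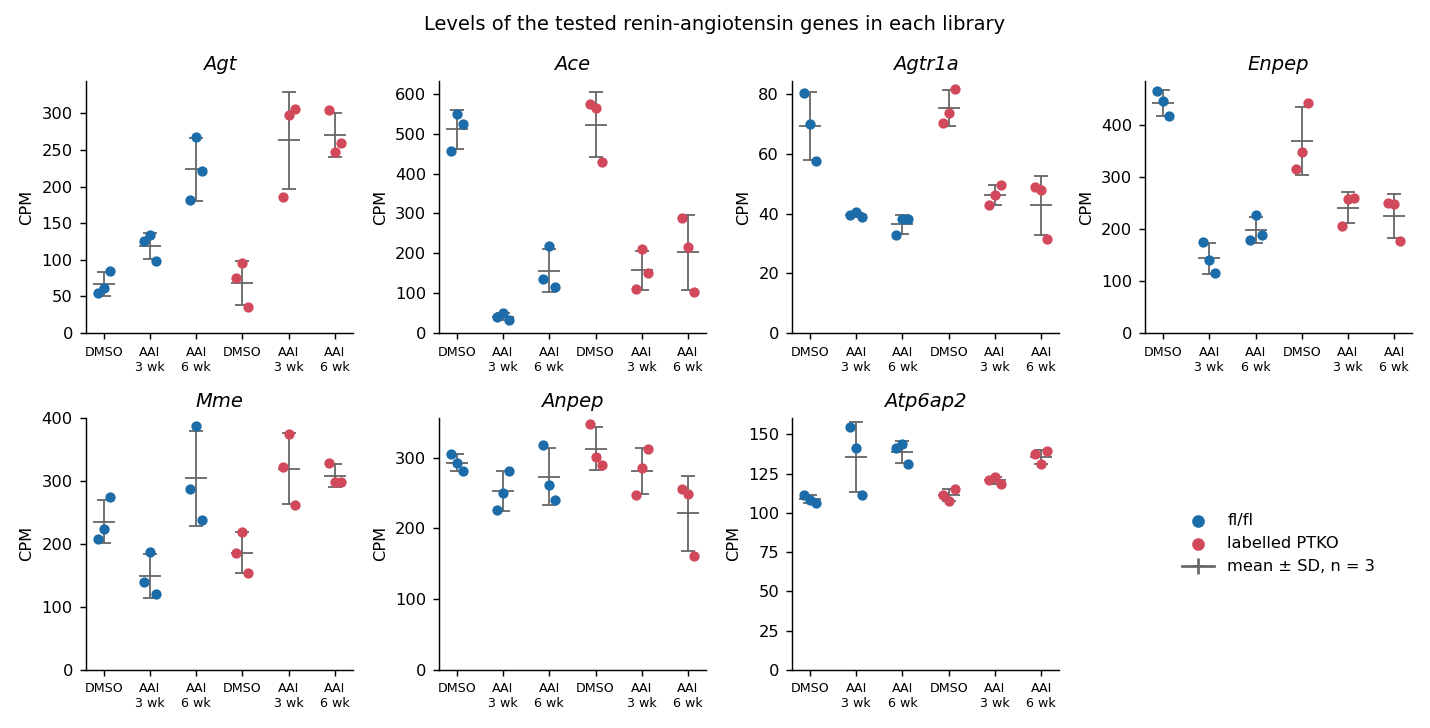
Level (CPM) of the 7 tested members in each library by group, with fl/fl in blue and libraries labelled PTKO in red; bars are the mean ± SD of 3 libraries. Agt is lowest in the DMSO groups, Ace is lowest in fl/fl at 3 weeks (32.8 to 49.6 CPM), and Anpep spans 160.2 to 346.9 CPM with most groups overlapping.

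Agt (chromosome 8, 124556534 to 124569706, minus strand) encodes angiotensinogen, the substrate of the system, and its level was higher after AAI in both genotypes. In fl/fl libraries it was 54.9, 61.1 and 84.8 CPM under DMSO, 125.5, 133.2 and 98.9 CPM at 3 weeks, and 181.5, 267.6 and 221.6 CPM at 6 weeks. The libraries labelled PTKO held 74.5, 95.5 and 35.7 CPM under DMSO, 186.2, 297.1 and 305.2 CPM at 3 weeks, and 304.6, 247.3 and 259.6 CPM at 6 weeks. Every AAI library lay above every DMSO library, and in fl/fl the 3 libraries of each time also lay apart from those of the other. The log2 rise in fl/fl was 0.84 ± 0.29 (SE, adjusted p = 0.0143) after 3 weeks and 1.73 ± 0.29 (adjusted p = 5.32e-05) after 6. With the PTKO label it was 1.999 ± 0.29 (adjusted p = 1.42e-05) and 2.07 ± 0.29 (adjusted p = 1.66e-05). The 3-week rise in fl/fl exceeded the median shift of all genes by 0.39. With median-of-ratios scaling it was 0.37 (adjusted p = 0.266), and the call was also lost under quantile normalization, edgeR and DESeq2, and without DMSO fl/fl replicate 1 (0.71, adjusted p = 0.0597). The other 3 rises kept their call under all 29 alternatives, at 1.25 to 2.42.

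Ace (chromosome 11, 105967945 to 105989964, plus strand), which encodes angiotensin converting enzyme, fell the furthest of the 7 tested members. Its levels in fl/fl were 457.3, 550.1 and 524.6 CPM under DMSO, 39.6, 49.6 and 32.8 CPM at 3 weeks, and 135.4, 217.7 and 116.5 CPM at 6 weeks. With the PTKO label they were 574.4, 563.5 and 428.3 CPM under DMSO, 110.9, 209.5 and 151.3 CPM at 3 weeks, and 287.6, 216.4 and 102.4 CPM at 6 weeks. No AAI library reached a DMSO library, and the 3 fl/fl libraries at 3 weeks were the lowest of all 18. The log2 difference from DMSO was -3.63 ± 0.32 (adjusted p = 4.39e-08) at 3 weeks in fl/fl and -1.75 ± 0.32 (adjusted p = 0.000136) at 6. With the PTKO label the 3-week and 6-week differences were -1.76 ± 0.32 (adjusted p = 0.000137) and -1.475 ± 0.32 (adjusted p = 0.000841). All 4 falls kept their call under all 29 alternatives. Exons of Ace overlap the gene model Gm11651 on the opposite strand over 295 bases, 5.58% of its exon length. The kit marks strand, but the labels do not say whether the counting used it.

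**Figure D2:**
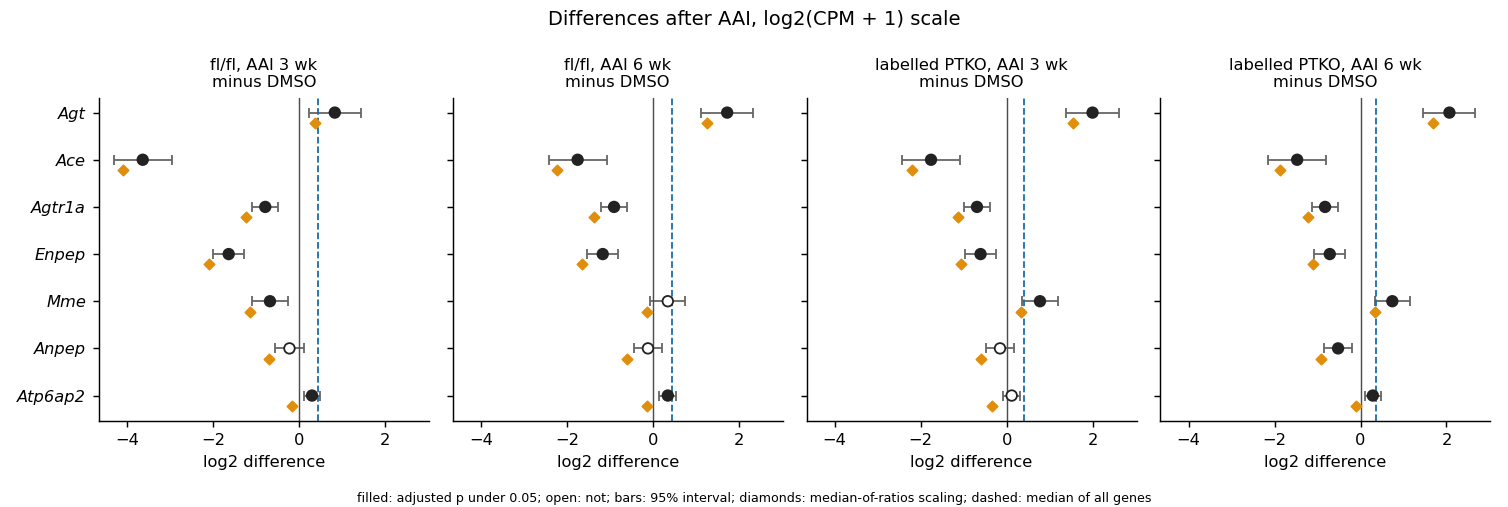
Log2 difference of each AAI group from the DMSO group of its genotype for the 7 tested members; points are limma estimates on log2(CPM + 1) with 95% intervals, filled where the adjusted p was under 0.05. The dashed line is the median of all tested genes, and the diamonds, from median-of-ratios scaling, lie to the left of each point by about that shift. It moves Atp6ap2 across 0 in every panel, and Mme in fl/fl at 6 weeks.

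Enpep (chromosome 3, 129269175 to 129332720, minus strand) encodes aminopeptidase A, which turns angiotensin II into angiotensin III, and it too fell in both genotypes. Under DMSO it was at 466.1, 446.4 and 417.3 CPM in fl/fl, against 175.9, 140.9 and 115.7 CPM at 3 weeks and 178.4, 226.9 and 189.1 CPM at 6 weeks. Libraries labelled PTKO held 316.7, 349.2 and 443.8 CPM under DMSO, 206.9, 257.4 and 259.6 CPM at 3 weeks, and 249.6, 249.3 and 177.2 CPM at 6 weeks. DMSO and AAI libraries did not overlap, and at 3 weeks the fl/fl libraries were all below those labelled PTKO. The log2 falls in fl/fl were -1.63 ± 0.17 (adjusted p = 2.75e-07) and -1.16 ± 0.17 (adjusted p = 1.5e-05) at 3 and 6 weeks. Those in the libraries labelled PTKO were -0.61 ± 0.17 (adjusted p = 0.00441) and -0.72 ± 0.17 (adjusted p = 0.00168), and all 4 kept their call under all 29 alternatives.

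Mme (chromosome 3, 63241537 to 63386030, plus strand) encodes neprilysin, which makes angiotensin 1-7 from angiotensin I and degrades natriuretic peptides. It went down in fl/fl and up in the libraries labelled PTKO at 3 weeks. The fl/fl levels were 207.9, 224.1 and 274.0 CPM under DMSO, 139.0, 187.9 and 119.8 CPM at 3 weeks, and 288.0, 387.1 and 238.0 CPM at 6 weeks. Those labelled PTKO were 185.7, 219.0 and 154.0 CPM under DMSO, 321.7, 375.3 and 262.3 CPM at 3 weeks, and 329.4, 299.0 and 298.1 CPM at 6 weeks. At 3 weeks the fl/fl libraries lay below their DMSO group and those labelled PTKO above theirs, with no overlap in either case. The log2 difference in fl/fl was -0.67 ± 0.19 (adjusted p = 0.00489) at 3 weeks and 0.35 ± 0.19 (adjusted p = 0.112) at 6, where the groups overlapped and median-of-ratios scaling gave -0.13. With the PTKO label the 3-week and 6-week values were 0.78 ± 0.19 (adjusted p = 0.002) and 0.74 ± 0.19 (adjusted p = 0.00346). Those last 2 rises lost their call with median-of-ratios scaling (0.33, adjusted p = 0.165, and 0.34, adjusted p = 0.152) and in edgeR and DESeq2 but kept it under quantile normalization (0.82, adjusted p = 0.00201, and 0.76, adjusted p = 0.00466).

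Anpep (chromosome 7, 79821803 to 79861059, minus strand) encodes aminopeptidase N, which turns angiotensin III into angiotensin IV, and its CPM changed least among the brush border peptidases here. With median-of-ratios scaling Anpep differed from DMSO by more than Mme did, except in fl/fl at 3 weeks. In fl/fl it was 304.9, 292.0 and 281.3 CPM under DMSO, 225.2, 250.2 and 281.6 CPM at 3 weeks and 317.5, 260.7 and 239.8 CPM at 6 weeks. The values labelled PTKO were 346.9, 300.2 and 289.6 CPM under DMSO, 246.5, 285.1 and 311.4 CPM at 3 weeks and 254.8, 248.4 and 160.2 CPM at 6 weeks. Only the 6-week libraries labelled PTKO lay apart from their DMSO group, replicate 3 being the lowest of the 18. That fall of 0.52 on the log2 scale (adjusted p = 0.00859) was not called without that replicate (-0.31, adjusted p = 0.0537). With median-of-ratios scaling this difference was -0.92 (adjusted p = 0.000261). The other 3 differences were -0.22 (adjusted p = 0.214) and -0.11 (adjusted p = 0.531) in fl/fl, and -0.15 at 3 weeks labelled PTKO (adjusted p = 0.39). With median-of-ratios scaling they were -0.68, -0.59 and -0.60 and were called lower. Quantile normalization gave -0.093, -0.0058 and -0.026, none of them called, so no change is given for these 3.

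Agtr1a (chromosome 13, 30336441 to 30382867, plus strand), the main type 1 receptor gene of the mouse kidney, fell in all 4 AAI groups, to 31.5 to 49.6 CPM. Its fl/fl levels were 80.4, 70.2 and 57.6 CPM under DMSO, 39.4, 40.4 and 38.9 CPM at 3 weeks, and 32.8, 38.2 and 38.3 CPM at 6 weeks. In the libraries labelled PTKO it was 70.2, 73.7 and 81.9 CPM under DMSO, 43.0, 46.1 and 49.6 CPM at 3 weeks, and 48.8, 48.0 and 31.5 CPM at 6 weeks. Every AAI library was below every DMSO library. The log2 falls at 3 and 6 weeks were -0.78 ± 0.15 (adjusted p = 0.000138) and -0.90 ± 0.15 (adjusted p = 4.29e-05) in fl/fl, and -0.69 ± 0.15 (adjusted p = 0.000528) and -0.83 ± 0.15 (adjusted p = 0.000157) in those labelled PTKO, and all 4 held under all 29 alternatives. Agtr1b (chromosome 3, 20314473 to 20367177, minus strand), the second type 1 receptor gene, is expressed mainly in the adrenal gland in rodents and was at 0 to 0.243 CPM, 19 reads in all 18 libraries together. Of its 2136 distinct 31-base words, 93 also occur in Agtr1a, so its few reads are uncertain. Markers of adrenal cortex summed to at most 6.94 CPM in any library.

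Atp6ap2 (chromosome X, 12587801 to 12617049, plus strand) encodes the (pro)renin receptor, which is also an accessory subunit of the vacuolar proton pump. It stood at 111.3, 108.3 and 106.2 CPM in fl/fl under DMSO, 154.8, 141.2 and 111.1 CPM at 3 weeks and 141.3, 144.1 and 131.1 CPM at 6 weeks. Libraries labelled PTKO ran at 111.2, 107.4 and 115.0 CPM under DMSO, 120.7, 122.7 and 118.7 CPM at 3 weeks and 137.4, 130.9 and 139.4 CPM at 6 weeks. The AAI libraries were above their DMSO group except for 3-week fl/fl replicate 3, which fell within it. On CPM the differences were 0.31 (adjusted p = 0.00646) and 0.35 (adjusted p = 0.00271) in fl/fl at 3 and 6 weeks, and 0.12 (adjusted p = 0.259) and 0.29 (adjusted p = 0.0122) in those labelled PTKO. All 4 were smaller than the shift of all genes and turned negative with median-of-ratios scaling (-0.16, -0.13, -0.33 and -0.11), so no direction is given for Atp6ap2. The 3-week value labelled PTKO was then called lower (adjusted p = 0.00746), as it was in edgeR (adjusted p = 0.0119) and DESeq2 (adjusted p = 0.00291), but not under quantile normalization (-0.044, adjusted p = 0.701). Of its 31-base words 7.38% also occur in the gene model Gm36448. Among 14 tested subunits of the same proton pump, 7 rose and 4 fell in fl/fl at 3 weeks, with Atp6v0a1 at 0.80 and Atp6v1a at -0.91, and with median-of-ratios scaling 2 rose and 8 fell. Of all tested genes 58% rose and 18.2% fell there, and 36.7% and 34.2% with that scaling.

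Counted over the 7 tested members, 6 changed in fl/fl at 3 weeks, where 76.1% of all tested genes did, and 5 at 6 weeks against 73.7%. In the libraries labelled PTKO 5 changed at 3 weeks against 71.1% and 7 at 6 weeks against 65.1%. These shares are near the background. The libraries of AAI and DMSO did not overlap for 5, 5, 6 and 7 members in that order, and for 80.7%, 78.8%, 74.9% and 68.3% of all tested genes. The counts of members that fell, 4 (fl/fl, 3 weeks), 3 (fl/fl, 6 weeks), 3 (labelled PTKO, 3 weeks) and 4 (labelled PTKO, 6 weeks), stand beside 18.2%, 13.9%, 13.9% and 11.4% of all tested genes. With median-of-ratios scaling 5, 4, 5 and 4 members fell, beside 34.2%, 32.5%, 31.3% and 28.9% of all tested genes. Per kilobase of exon, Ace at 96.6 ± 9.07 and Enpep at 94.2 ± 5.22 CPM per kb were the most abundant members in fl/fl under DMSO, overlapping each other. Anpep (70.8 ± 2.86), Atp6ap2 (41.5 ± 0.995), Agt (35.4 ± 8.36), Agtr1a (24.9 ± 4.10) and Mme (20.4 ± 2.99 CPM per kb) followed. Of these neighbours Atp6ap2 and Agt overlapped, as did Agtr1a and Mme. Exon length here joins the exons of all annotated transcripts, 11542 bases for Mme, so the order of the members depends on the annotation. In fl/fl at 3 weeks Ace was last, at 7.69 ± 1.6 CPM per kb, and Agt (63.0 ± 9.54) and Anpep (61.0 ± 6.84) were first and overlapped. In the other 3 AAI groups Agt stood first and apart from the next member, at 118 to 143 CPM per kb, and Agtr1a was last.

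The genotypes were compared within each treatment to see where the label went with a different level. Under DMSO limma called none of the 7 members, where 0.288% of all genes were called, and none had an unadjusted p under 0.05 or was called by edgeR or DESeq2. At 3 weeks of AAI 4 members were higher in the libraries labelled PTKO, Ace, Agt, Mme and Enpep, and none was lower, where 14.2% of all genes changed and 6.22% were higher. The libraries of the genotypes did not overlap for 5 members there, and for 33.7% of all genes. Ace, at 110.9 to 209.5 CPM against 32.8 to 49.6 CPM, differed by 1.90 ± 0.32 on the log2 scale (adjusted p = 0.0029), and Mme, at 262.3 to 375.3 against 119.8 to 187.9 CPM, by 1.11 ± 0.19 (adjusted p = 0.00366). Both held under all 29 alternatives. Agt, at 186.2 to 305.2 against 98.9 to 133.2 CPM, differed by 1.11 ± 0.29 (adjusted p = 0.0197), and Enpep, at 206.9 to 259.6 against 115.7 to 175.9 CPM, by 0.75 ± 0.17 (adjusted p = 0.0109). The Agt call was lost without fl/fl replicate 3 (0.98, adjusted p = 0.104) or without replicate 2 or 3 labelled PTKO (1.01, adjusted p = 0.0977, and 0.99, adjusted p = 0.0787). That of Enpep was lost without fl/fl replicate 3 (0.61, adjusted p = 0.0725) or replicate 2 labelled PTKO (0.70, adjusted p = 0.063), all at 3 weeks. For Agtr1a the 3-week groups did not overlap, yet the difference of 0.22 was not called (95% interval -0.09 to 0.53, adjusted p = 0.333). Anpep (0.15, -0.18 to 0.49) and Atp6ap2 (-0.15, -0.35 to 0.04) were not called either, though Atp6ap2 was called lower without fl/fl replicate 3 (-0.29, adjusted p = 0.0369).

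**Figure D3:**
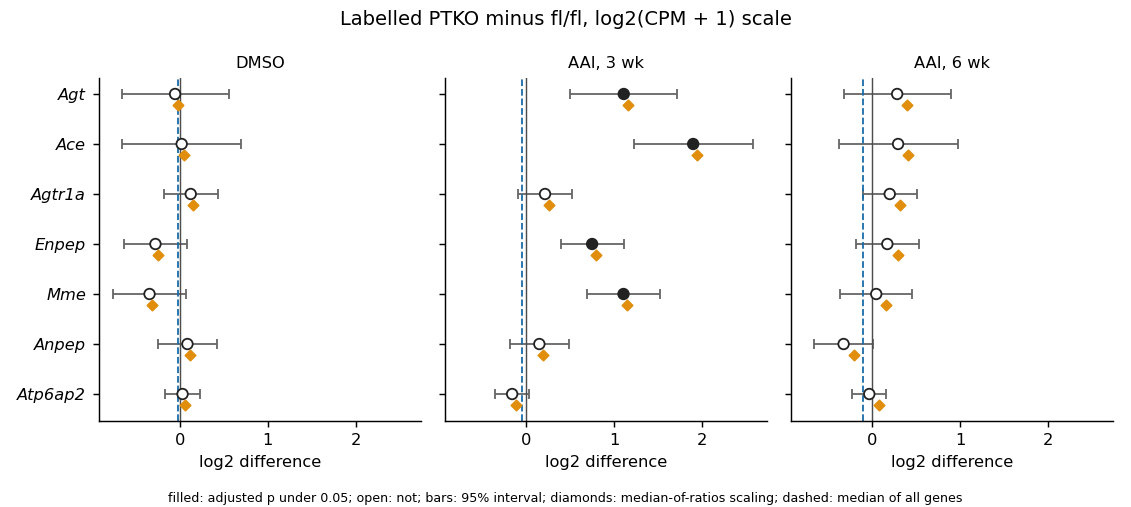
Log2 difference between libraries labelled PTKO and fl/fl for the 7 tested members under DMSO, at 3 weeks and at 6 weeks of AAI; points are limma estimates with 95% intervals, filled where the adjusted p was under 0.05, diamonds are from median-of-ratios scaling and the dashed line is the median of all genes. Filled points appear only at 3 weeks, for Agt, Ace, Enpep and Mme.

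At 6 weeks limma called no member between genotypes, where 15.1% of all genes were called, nor did any have an unadjusted p under 0.05 or pass in edgeR or DESeq2. Without 6-week replicate 3 labelled PTKO 1 member other than Ace was called. That library had a proximal tubule marker sum of 9290 CPM, against 23030 and 20080 CPM in the others of its group. The interval of the Ace difference, 0.30 with a 95% interval of -0.38 to 0.97, still holds differences of nearly a log2 unit. Whether AAI acted differently by genotype at 3 weeks was tested by the interaction, which called 1 member, Mme (1.45 ± 0.27, adjusted p = 0.045), where 0.281% of all genes were called. Its call was lost in 13 of 29 alternatives, at 1.31 to 1.63 over all of them, among them edgeR (1.49, adjusted p = 0.055). Leaving out fl/fl DMSO replicate 1, 2 or 3, PTKO-labelled DMSO replicate 1 or 3, 3-week fl/fl replicate 3, or 3-week replicate 2 or 3 or 6-week replicate 1 or 2 labelled PTKO each ended it, at adjusted p from 0.0509 to 0.138. For Ace (1.87 ± 0.45, adjusted p = 0.065), Enpep (1.03 ± 0.24, adjusted p = 0.0614) and Agt (1.16 ± 0.40, adjusted p = 0.144) the interaction was not called. DESeq2 called it for Ace (adjusted p = 0.00479) and Enpep (adjusted p = 0.0137). At 6 weeks the interaction called no member, where 0.0685% of all genes were called, nor did any reach an unadjusted p under 0.05 or pass in edgeR or DESeq2. The 3- and 6-week comparisons of a genotype share its DMSO libraries.

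During remodeling, from 3 to 6 weeks, Ace, Mme and Agt went up in fl/fl, where 13.2% of all genes changed and 7.16% rose. For 5 members the 3- and 6-week libraries did not overlap, as for 32.2% of all genes. Ace rose by 1.89 ± 0.32 (adjusted p = 0.00227) and Mme by 1.02 ± 0.19 (adjusted p = 0.00416), with no overlap of the libraries, and both held under all 29 alternatives. Ace at 6 weeks nevertheless remained below DMSO, as given above. The rise of Agt by 0.90 ± 0.29 lay at the threshold (adjusted p = 0.0493) and lost its call in 20 of 29 alternatives, with adjusted p from 0.0138 to 0.188. Leaving out fl/fl 6-week replicate 2 gave 0.76 (adjusted p = 0.188) and leaving out 3-week replicate 3 gave 0.77 (adjusted p = 0.181). Enpep moved by 0.47 and was not called (adjusted p = 0.0758). In the libraries labelled PTKO no member was called from 3 to 6 weeks, where 11.2% of all genes were, and 1 had an unadjusted p under 0.05, Anpep. Neither edgeR nor DESeq2 called any there.

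Levels of the members were set beside markers of the cells that carry them. In bulk cortex, fewer cells of a type and less RNA per cell cannot be told apart. Of 14 proximal tubule markers, 14 fell in fl/fl at 3 weeks and at 6 weeks, and 13 and 12 fell in the libraries labelled PTKO. Of all tested genes 18.2%, 13.9%, 13.9% and 11.4% fell in that order. The summed level of the 14 markers ran from 62360 to 69300 CPM in the DMSO libraries, 4221 to 7856 CPM in fl/fl at 3 weeks and 10140 to 23780 CPM at 6 weeks. In the libraries labelled PTKO it ran from 8936 to 14080 CPM at 3 weeks and 9290 to 23030 CPM at 6 weeks. Between genotypes at 3 weeks 10 of the 14 were higher in those labelled PTKO and none was lower, where 6.22% of all tested genes were higher. Ace and Enpep, then, were lowest in the libraries where these markers were lowest and highest under DMSO, while Agt was lowest under DMSO and Mme had values above DMSO in libraries with a low marker sum. Of 13 other brush border genes 11 fell in fl/fl at 3 weeks, and 8 of 13 were higher in those labelled PTKO than in fl/fl at that time. Ace is also a gene of endothelium, and of 10 endothelial markers 4 rose and 1 fell in fl/fl at 3 weeks, with sums of 731 to 870.7 CPM under DMSO and 746.4 to 996.9 CPM at 3 weeks. With median-of-ratios scaling none of the endothelial markers rose there and 3 fell. Of all tested genes 58% rose and 18.2% fell there on CPM, and 36.7% and 34.2% with that scaling. The same scaling left 14, 14, 13 and 14 proximal tubule markers lower, beside 34.2%, 32.5%, 31.3% and 28.9% of all tested genes. Macrophage markers moved the other way between genotypes at 3 weeks, with 7 of 9 lower in those labelled PTKO (sums of 1655 to 3301 CPM, against 4970 to 8217 CPM in fl/fl). In that comparison 1169 of all 14604 tested genes were lower. The part of cell composition in the members' differences was not tested.

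**Figure D4:**
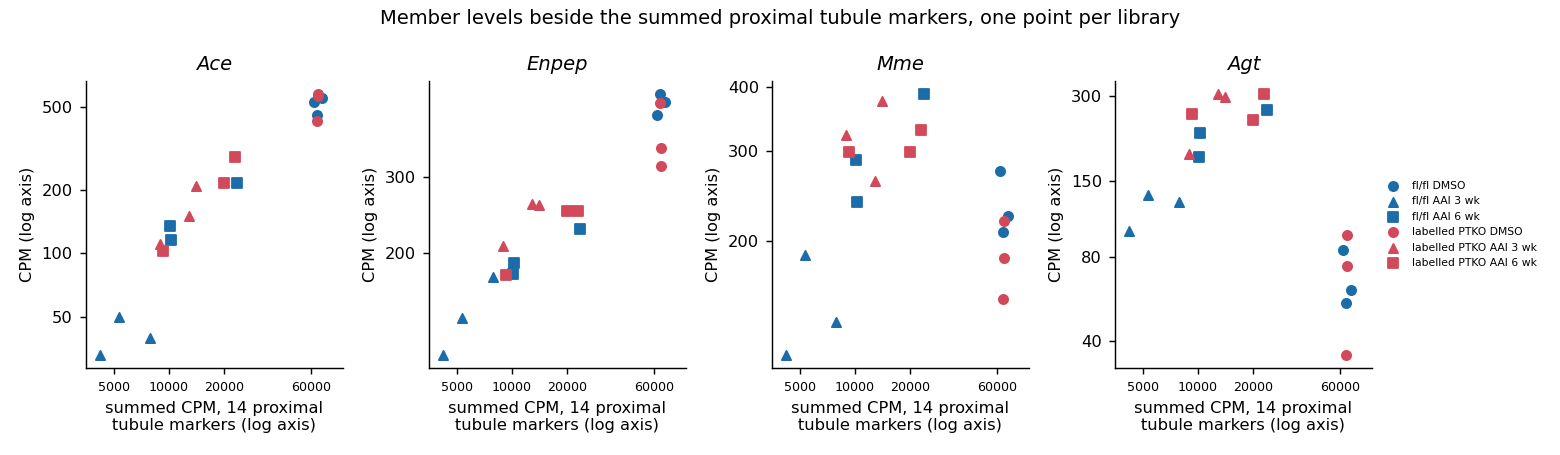
Level (CPM, log axis) of Ace, Enpep, Mme and Agt in each library against the summed CPM of 14 proximal tubule markers (log axis), with colour for genotype and symbol for treatment. The DMSO libraries sit together at the right (62360 to 69300 CPM); Ace and Enpep are highest there, Agt is lowest there, and Mme spans 119.8 to 387.1 CPM with its lowest values in fl/fl at 3 weeks.

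Over the 18 libraries the log2 levels of Ace and Enpep had a Pearson correlation of 0.92 and of 0.55 within groups (deviations from the group means), and Ace and Agtr1a 0.79 and 0.51. Agt ran against Agtr1a (-0.73 over all libraries, -0.12 within groups). The libraries share the treatment contrast, so these describe the pattern and carry no test. The tested named genes most like Ace were Acy1 (aminoacylase), Pank1 (pantothenate kinase) and Cckar (cholecystokinin receptor), at 0.985, 0.985 and 0.983. Those most like Enpep were Ankib1, Eps8 and Slc10a5, at 0.976, 0.976 and 0.975. For Agt they were the forkhead factor gene Foxc1 (0.939), Pgm5 (0.934) and the prostaglandin D synthase gene Ptgds (0.933), and for Agtr1a Ces2b (0.956), the ornithine decarboxylase gene Odc1 (0.954) and Arhgap10 (0.952). Mme was most like A4gnt (0.891), the sodium-glucose transporter gene Slc5a1 (0.884) and Serpina1f (0.880). Anpep had no gene above 0.814 (Bach2, then Stk35 at 0.764 and Trim25 at 0.760), and Atp6ap2 was most like the vesicle traffic genes Rab6a (0.905) and Stx7 (0.902) and Arl6ip6 (0.899).

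Beside the members, 15 other genes of the system were looked up, and 10 were tested. Mas1, the receptor for angiotensin 1-7, was low throughout. It was at 1.88, 3.35 and 3.44 CPM in fl/fl under DMSO, 1.05, 0.61 and 0.567 CPM at 3 weeks and 1.65, 2.47 and 1.78 CPM at 6 weeks. With the PTKO label it was at 4.30, 2.89 and 2.32 CPM, then 1.27, 1.29 and 0.486 CPM, then 1.66, 1.26 and 0.358 CPM. The 3-week libraries of each genotype lay below its DMSO libraries. The log2 falls at 3 weeks were -1.14 in fl/fl (adjusted p = 0.000923) and -1.05 in those labelled PTKO (adjusted p = 0.00212). The peptidase genes Rnpep, Prep, Thop1, Ctsa and Prcp rose in fl/fl at 3 weeks, by 0.42 (Prcp) to 0.88 (Rnpep), and Prcp turned negative with median-of-ratios scaling. In all, 5 rose and 1 fell there, 4 rose and 1 fell in fl/fl at 6 weeks, and in those labelled PTKO 3 rose and 2 fell at each time. Of all tested genes 58%, 59.8%, 57.2% and 53.7% rose and 18.2%, 13.9%, 13.9% and 11.4% fell in that order of groups. The gene that fell in fl/fl at 6 weeks was Agtrap (-0.25, adjusted p = 0.0356), and Mas1 was not called there (-0.37, adjusted p = 0.208). Those that fell with the PTKO label were Mas1 and Agtrap. Agtrap differed there by -0.43 at 3 weeks (adjusted p = 0.00123) and -0.33 at 6 (adjusted p = 0.0103). Of the rises called on CPM, Prep, Thop1 and Ctsa turned negative with median-of-ratios scaling in fl/fl at 6 weeks. So did Prep in those labelled PTKO at 6 weeks. Prep in fl/fl at 6 weeks was then called lower (-0.19, adjusted p = 0.0356). Nln, not called on CPM, was called lower with that scaling in each AAI group (-0.41, -0.60, -0.38 and -0.50). The counts became 3 risen and 4 fallen, 1 and 7, 1 and 4, and 0 and 5 in that order of groups. Of all tested genes 36.7%, 34.1%, 32.9% and 28.7% then rose and 34.2%, 32.5%, 31.3% and 28.9% fell. The list's median in fl/fl at 3 weeks was 0.275, beside 0.45 for all genes. The receptor gene Agtr2, Mrgprd and the mast cell or neutrophil protease genes Cma1, Cpa3 and Ctsg did not pass the filter, none exceeding 0.363 CPM. Klk1, the renal kallikrein that makes kinins, ran from 636.4 to 1737 CPM and was not called on CPM in any AAI comparison. Median-of-ratios scaling called it lower in fl/fl (-0.98, adjusted p = 0.00611, at 3 weeks), and quantile normalization called it higher in those labelled PTKO (0.77, adjusted p = 0.0171, at 3 weeks), so no direction is given.

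**Figure D5:**
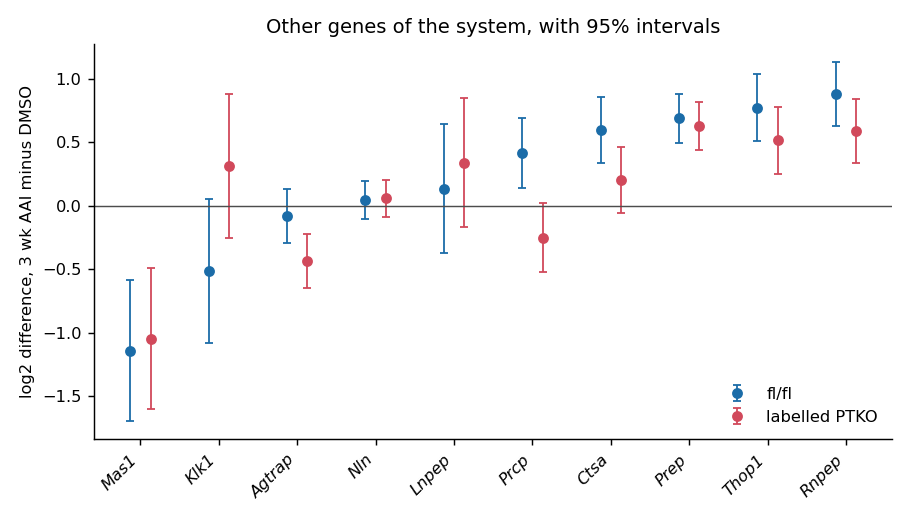
Log2 difference (3 weeks of AAI minus DMSO, vertical axis) of 10 other genes of the system with 95% intervals, in fl/fl (blue) and in libraries labelled PTKO (red). Mas1 is lowest in both genotypes (-1.14 and -1.05) and Rnpep is highest in fl/fl (0.88).

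Of 8 aldosterone-response genes, which act downstream in the distal nephron, 3 rose in fl/fl at 3 weeks and 6 at 6 weeks, and 5 and 8 rose in those labelled PTKO, with none falling on CPM. Of all tested genes 58%, 59.8%, 57.2% and 53.7% rose in the same order. With median-of-ratios scaling 2 rose and 3 fell in fl/fl at 3 weeks, 2 rose at 6 weeks, and in those labelled PTKO 3 rose and 1 fell, then 5 rose. Of all tested genes 36.7%, 34.1%, 32.9% and 28.7% then rose and 34.2%, 32.5%, 31.3% and 28.9% fell. The list's median, 0.41, 0.45, 0.70 and 0.885 in that order, stands beside medians of all genes of 0.45, 0.45, 0.415 and 0.36. At 6 weeks labelled PTKO the list summed to 1243, 1156 and 1856 CPM, against at most 1313 CPM in any library of the other groups. The highest of these, replicate 3, is the library with the low fibroblast marker sum. Its part in the counts was not tested. Hsd11b2, which shields the mineralocorticoid receptor from glucocorticoids, rose by 0.85 in fl/fl (adjusted p = 0.000227) and 1.11 in those labelled PTKO (adjusted p = 2.4e-05) at 3 weeks. Scnn1b, a subunit of the epithelial sodium channel, rose by 0.87 (adjusted p = 0.000165) and 1.11 (adjusted p = 2.04e-05). With median-of-ratios scaling the rises of Hsd11b2 were 0.39 (adjusted p = 0.0328) and 0.66 (adjusted p = 0.001355). Those of Scnn1b were then 0.40 (adjusted p = 0.0256) and 0.66 (adjusted p = 0.00123). Sgk1, a kinase that aldosterone induces, rose by 0.58 in fl/fl at 3 weeks (adjusted p = 0.0148), but not with median-of-ratios scaling (0.11, adjusted p = 0.629). These 3 genes had the smallest adjusted p of the list on CPM in fl/fl at 3 weeks. The 3 that fell there with median-of-ratios scaling are others. No plasma hormone was measured here.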

How the data were processed

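Total RNA of mouse kidney cortex was sequenced in 18 libraries (3 in each of 6 groups, taken from the sample labels). The deposited values are CPM for 24062 gene symbols. The tools that made them were kallisto and bcl2fastq 2.19 with the build mm10, per the submitters' processing notes. Multiplied by the library total inferred from their steps, 100% of 433116 values came out whole (tolerance 0.01 read), so reads were recovered (11722625 to 27213219 per library) for edgeR and DESeq2, which were alternatives because the authors deposited CPM. A 0 in 1 library allows up to 3 reads, counting error only.

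The 14604 genes reaching 1 CPM in 3 or more libraries were fitted on log2(CPM + 1) by limma 3.58.1 (R 4.3.3) as means of 6 groups, using a variance trend and Benjamini-Hochberg adjustment, in 11 comparisons. Fold changes on this scale understate changes of low genes. Intervals are at 95%. Alternatives were another pseudocount (0.1), a stricter filter (5 CPM) or none, scaling by median of ratios or by quantiles, the compared groups alone, a replicate block, no variance trend, edgeR 4.0.16 (quasi-likelihood), DESeq2 1.42.0, and leaving out each library. Leaving out the 3 libraries that stood apart together (the 2 with high adipocyte markers and the shallowest) was chosen after seeing the data. The fit was tested on simulated data without a shift of all genes, so that test says nothing on the choice of scaling.

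The members and gene lists were chosen with earlier results of these data known. The text names all 9 members, from each list described up to 3 genes with the smallest adjusted p, any of the 15 other genes of the system, and the 3 genes most correlated with each member. Akr1b7, Gapdh, Ubb, Atp6v0c and Ren2 were named after their values were seen. Positions and exon lengths are from GENCODE release M21 (mm10), promoters from RefSeq on GRCm38.p6. The counting of antisense or shared reads is not given in the sources used here. Results on 1 further gene of the system are not reported here.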

Additional observations from a re-analysis of the deposited data

Results flagged for a closer look

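The difference in the AAI response of Mme between genotypes at 3 weeks stood out because it passed a test of the difference itself. The interaction was 1.45 on the log2 scale (limma adjusted p = 0.045). Mme went from 235.3 ± 34.5 to 148.9 ± 35.1 CPM in fl/fl and from 186.2 ± 32.5 to 319.8 ± 56.5 CPM in the libraries labelled PTKO (SD, n = 3). The difference had the same direction in each of 29 alternatives, with adjusted p from 0.000484 to 0.138, and lost its call in 13 of them. The rise labelled PTKO was not called with median-of-ratios scaling (0.33, adjusted p = 0.165), edgeR or DESeq2. Between 3-week libraries Mme did not overlap by genotype, and under DMSO it did.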

How the results depend on the processing

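Of 77 results (7 members in 11 comparisons), 31 were called and 20 of them kept direction and call under all 29 alternatives. The interaction at 3 weeks called 1 member, but 0 with no filter, no variance trend or edgeR, 3 with the compared groups alone or DESeq2, and 0 to 3 when a library was left out. The share of 0.281% of all tested genes belongs to limma over all 18 libraries and is not the background of any alternative. Between genotypes, leaving out a library gave 2 to 4 members at 3 weeks and 0 to 1 at 6 weeks (1 without replicate 3 labelled PTKO). Signs turned with scaling. Atp6ap2 against DMSO in fl/fl was -0.16, -0.16 and -0.15 at 3 weeks and -0.13, -0.13 and -0.13 at 6 weeks under median-of-ratios, edgeR and DESeq2, and in those labelled PTKO -0.33, -0.32 and -0.33 (quantile -0.044) at 3 weeks and -0.11, -0.075 and -0.11 at 6 weeks. Mme in fl/fl at 6 weeks was -0.13, -0.10 and -0.10 under the same 3. The Ace genotype difference at 6 weeks ran from -0.018 to 0.72 without 1 library. Leaving out the 3 libraries that stood apart ended 2 calls, Atp6ap2 at 6 weeks labelled PTKO (adjusted p = 0.0529) and Agt from 3 to 6 weeks in fl/fl (adjusted p = 0.156). Median-of-ratios, quantile, edgeR and DESeq2 scaling remove the shift of all genes. The other causes were not tested.

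With the replicate number as a block, the interaction at 3 weeks called 2 members (Mme and Ace), and the Agt rise from 3 to 6 weeks in fl/fl lost its call (adjusted p = 0.0544). The numbers share no stated origin: in 9 comparisons same-numbered libraries correlated at -0.37 to 0.24 in their deviations from group means, in 0 of them all above 0.1, and in 0 did every library correlate best with its own number. Outside these comparisons, 6-week fl/fl against 3-week labelled PTKO gave 0.466, 0.491 and 0.012 for replicates 1, 2 and 3. Depth limits Agtr1b, whose 0.243 CPM or less is at most a few reads per library.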
